A study of Mus musculus with 8 samples.

Results

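The hepatic route from methionine to cysteine and taurine was described here by 10 genes: Mat1a, Mat2a, Gnmt, Ahcy, Bhmt, Bhmt2, Cbs, Cth, Cdo1 and Csad. Every probe-set annotated to one of them was taken. This gave 11 of 45037 probe-sets for 9 of the 10 genes, with 2 probe-sets each for Bhmt2 and Cbs and 1 for each of the other 7. No probe-set is annotated to Mat2a, which is not analysed here. The livers came from young adult male mice, singly housed for 10 days under 14 h of light and 10 h of dark and harvested in a narrow afternoon window. The 4 txnrd1 cond/- albCre1 animals (69, 72, 73 and 81) carry 1 constitutive null allele in all cells and 1 conditional allele, and the albumin promoter drives Cre in their hepatocytes, which become txnrd1-/-. The 4 txnrd1 cond/+ albCre0 animals (70, 71, 80 and 82) carry the conditional allele beside a wild type one and no Cre. These groups are called txnrd1-/- and txnrd1 cond/+ livers below. Loss of Txnrd1 and presence of Cre cannot be told apart in this design, and other liver cells of the txnrd1-/- livers keep the conditional allele.

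Hepatocytes hold most of the body's methionine cycle. Methionine adenosyltransferase makes S-adenosylmethionine, methyltransferases use it up, and the S-adenosylhomocysteine they leave is split to homocysteine, which is either methylated back to methionine or passed through cystathionine to cysteine. Cysteine then feeds glutathione, protein, sulfate and taurine, so the route supplies the thiol of the glutathione system that works beside thioredoxin.

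The 8 arrays had a median ratio of 0.997 to 0.999. Hepatocyte markers, 9 of 9 measured, were close to level, with a mean log2 ratio of -0.10 to 0.06 in txnrd1-/- livers and -0.01 to 0.07 in txnrd1 cond/+ livers. Of 50 markers of 10 cell types and tissues, 0 passed limma at a p of 0.05 or less, adjusted or not. Animal 71, a txnrd1 cond/+ liver, stood apart for pancreatic enzyme mRNAs. The 6 of 7 listed that were measured had a mean log2 ratio of -0.26 to 0.13 in txnrd1-/- livers and of 4.51 in animal 71, with no other liver above 0.13. Its part in the results was not tested beyond leaving that animal out. Neutrophil markers, 5 of 5 measured, varied between livers of each genotype, from -0.81 to 0.49 in txnrd1-/- livers and from -0.79 to 0.93 in txnrd1 cond/+ livers. The 3 probe-sets of Txnrd1 itself had log2 fold changes of 1.11, -0.71 and -0.41, and since their place relative to the deleted part is unknown here, they do not check the labels.

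No member differed between the genotypes by the test. Of the 9 measured genes, 5 were higher and 4 lower in txnrd1-/- livers by the sign of the estimate alone, and log2 fold changes lay between -0.22 for Cbs and 0.35 for Csad. In limma 0 of 11 probe-sets were called after adjustment, where 0.0266% of all probe-sets were, and 0 met the study's thresholds of 1.5-fold with an unadjusted p of 0.05 or less, where 0.562% did. By the unadjusted p alone the count was again 0 (1.82% of all probe-sets). The ratios of the genotypes overlapped for all 11 probe-sets, where they did not overlap for 1.46% of all probe-sets. With so low a background, counts of 0 say little about the members. The median log2 fold change was 0.03 over the 9 genes and 0.00 over all 18193 genes. The median size of the change, regardless of sign, was 0.12 over the members and 0.08 over all genes. Adjusted p from limma was 1.0 after rounding for every member.

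The intervals say how large a difference the arrays leave room for. For 8 of the 9 genes the 95% interval from limma lay inside 1.5-fold in both directions, which was also the case for 82.5% of all genes. The exception was Csad. The bounds closest to it among the 8 were that of Cth, 0.58 on the log2 scale on the higher side, and that of Cbs, which allowed levels up to 1.47-fold lower. By probe-set 8 of 11 lay inside, against 74.0% of all probe-sets, with Csad, Cth and 1 of the probe-sets of Cbs reaching outside.

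**Figure D1:**
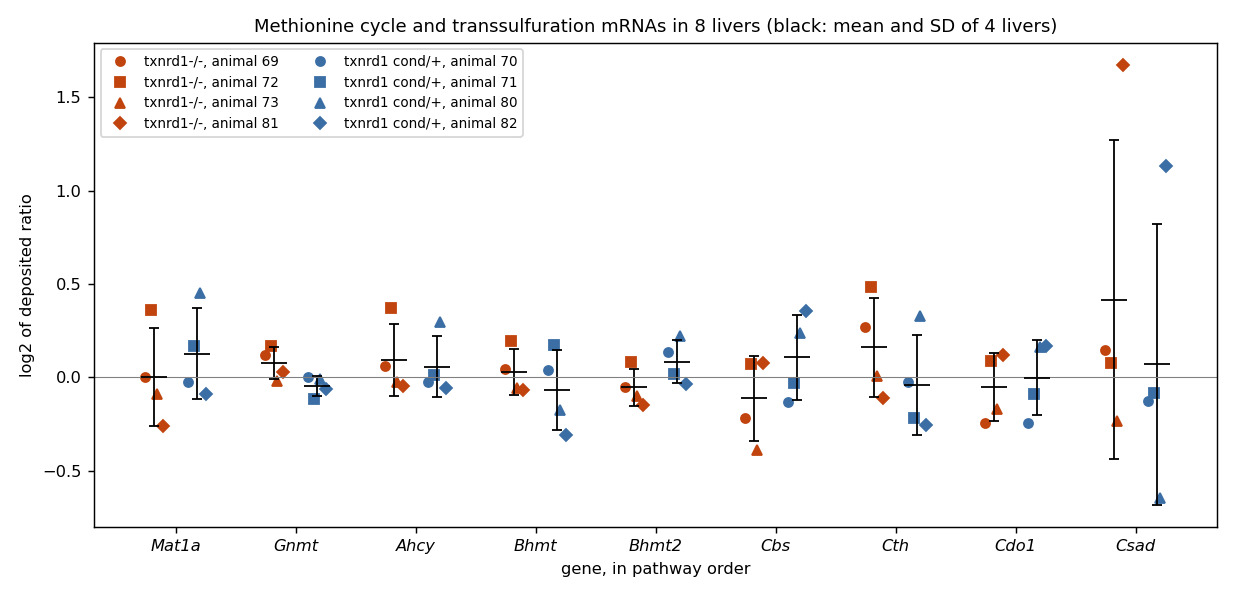
Log2 of the deposited ratio (vertical axis) for the 9 measured genes in pathway order (horizontal axis), with 1 point per liver, txnrd1-/- (red) left of txnrd1 cond/+ (blue), and the mean and SD of 4 livers in black. The genotypes overlap for every gene, and Csad alone is spread over more than 2 log2 units, with animals 81 and 82 on top.

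No gene at the head of the cycle passed the test. Mat1a encodes the methionine adenosyltransferase of adult liver. Its ratios were 1.00, 1.28, 0.940 and 0.835 in txnrd1-/- animals 69, 72, 73 and 81, against 0.982, 1.12, 1.37 and 0.940 in txnrd1 cond/+ animals 70, 71, 80 and 82. The highest liver was a txnrd1 cond/+ one, animal 80, and the lowest a txnrd1-/- one, animal 81, with the other 6 intermixed. The means were 1.01 ± 0.192 in txnrd1-/- livers and 1.10 ± 0.193 in txnrd1 cond/+ livers (SD, n = 4 each), a log2 fold change of -0.12 (95% interval -0.49 to 0.24, exact permutation p = 0.543).

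Gnmt encodes glycine N-methyltransferase, which disposes of surplus S-adenosylmethionine by methylating glycine. It had ratios of 1.09, 1.12, 0.986 and 1.02 in txnrd1-/- animals 69, 72, 73 and 81, against 1.00, 0.924, 0.994 and 0.958 in txnrd1 cond/+ animals 70, 71, 80 and 82. In 3 of 4 txnrd1-/- livers it stood above every txnrd1 cond/+ liver, and animal 73 overlapped with them. Gnmt was the steadiest member: its highest liver was 1.22-fold above its lowest, and its SD within genotypes, 0.0713 on the log2 scale, was at percentile 2.34 of all genes. The log2 fold change was 0.12 (95% interval -0.08 to 0.33), and the exact permutation test gave p = 0.0857, the lowest of the 9 genes.

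Ahcy encodes the hydrolase that splits S-adenosylhomocysteine into adenosine and homocysteine. Its ratios were 1.04, 1.29, 0.985 and 0.969 in txnrd1-/- animals 69, 72, 73 and 81, against 0.984, 1.01, 1.23 and 0.960 in txnrd1 cond/+ animals 70, 71, 80 and 82. Animal 72 of the txnrd1-/- group and animal 80 of the txnrd1 cond/+ group stood above the remaining livers, which lay close together in both genotypes. Its log2 fold change of 0.03 (95% interval -0.25 to 0.32, exact permutation p = 0.600) was the smallest in size among the members.

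The betaine branch showed no difference past the spread either. Bhmt encodes betaine-homocysteine methyltransferase, which remethylates homocysteine with betaine from choline. It had ratios of 1.03, 1.15, 0.962 and 0.954 in txnrd1-/- animals 69, 72, 73 and 81, against 1.03, 1.13, 0.887 and 0.807 in txnrd1 cond/+ animals 70, 71, 80 and 82. The 2 lowest livers were txnrd1 cond/+ ones and the upper part of the range was shared. The log2 fold change was 0.10 (95% interval -0.19 to 0.38, exact permutation p = 0.429).

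Bhmt2, which lies next to Bhmt on chromosome 13 with 0 annotated genes between them in GRCm38.p6, encodes a methyltransferase that takes the methyl group from S-methylmethionine. The mean of its probe-sets was a ratio of 0.966, 1.06, 0.935 and 0.904 in txnrd1-/- animals 69, 72, 73 and 81, against 1.10, 1.01, 1.17 and 0.977 in txnrd1 cond/+ animals 70, 71, 80 and 82. The estimate ran opposite to that of Bhmt, with a log2 fold change of -0.14 (95% interval -0.37 to 0.09, exact permutation p = 0.143). The gap between the neighbours was not tested, and both intervals hold 0.

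The probe-sets of Bhmt2 parted in animal 82, where one stood at 0.849, its lowest liver, and the other at 1.12. The first, 1418913_at, had a log2 fold change of -0.11 (exact permutation p = 0.400). The second, 1418914_s_at, whose suffix marks probes that can read several related transcripts, had one of -0.16 (exact permutation p = 0.0571). Its ratios were 0.941 to 1.01 in txnrd1-/- livers and 0.990 to 1.17 in txnrd1 cond/+ livers, so the groups overlapped by animals 71 and 72.

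Transsulfuration is the step on which supply of cysteine from methionine turns. Cbs encodes cystathionine beta-synthase, which joins homocysteine to serine, and had the lowest unadjusted p of the members in limma. Its mean ratios over its probe-sets were 0.861, 1.05, 0.764 and 1.06 in txnrd1-/- animals 69, 72, 73 and 81, against 0.911, 0.981, 1.18 and 1.28 in txnrd1 cond/+ animals 70, 71, 80 and 82. The lowest pair was txnrd1-/- and the highest pair txnrd1 cond/+, with 2 livers of each genotype between them. The means were 0.934 ± 0.145 in txnrd1-/- livers and 1.09 ± 0.172 in txnrd1 cond/+ livers (SD, n = 4 each), a log2 fold change of -0.22 (95% interval -0.56 to 0.12, exact permutation p = 0.257). Its probe-sets ran the same way, at log2 fold changes of -0.18 and -0.26 (exact permutation p = 0.200 and 0.257). The first of them, 1423844_s_at, carries the same suffix as the Bhmt2 probe-set 1418914_s_at. The other is 1425623_a_at, and neither counts as unique.

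Cth encodes cystathionine gamma-lyase, which releases cysteine from cystathionine and is known to be raised when amino acids run short. It had ratios of 1.20, 1.40, 1.00 and 0.926 in txnrd1-/- animals 69, 72, 73 and 81, against 0.985, 0.860, 1.25 and 0.839 in txnrd1 cond/+ animals 70, 71, 80 and 82. Animal 80 stood with the upper txnrd1-/- livers and animal 81 among the txnrd1 cond/+ ones. The means were 1.13 ± 0.211 in txnrd1-/- livers and 0.985 ± 0.191 in txnrd1 cond/+ livers (SD, n = 4 each), and the log2 fold change was 0.20 (95% interval -0.18 to 0.58, exact permutation p = 0.286). Cbs and Cth, which act one after the other, thus had estimates of opposite sign, with 95% intervals that both held 0.

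Cdo1 encodes cysteine dioxygenase, which oxidizes surplus cysteine and is the gate to taurine and sulfate. Its ratios were 0.843, 1.06, 0.889 and 1.09 in txnrd1-/- animals 69, 72, 73 and 81, against 0.845, 0.939, 1.12 and 1.12 in txnrd1 cond/+ animals 70, 71, 80 and 82. In each genotype 2 livers lay near the bottom of the range and 2 near the top. The log2 fold change was -0.05 (95% interval -0.35 to 0.25, exact permutation p = 0.600).

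**Figure D2:**
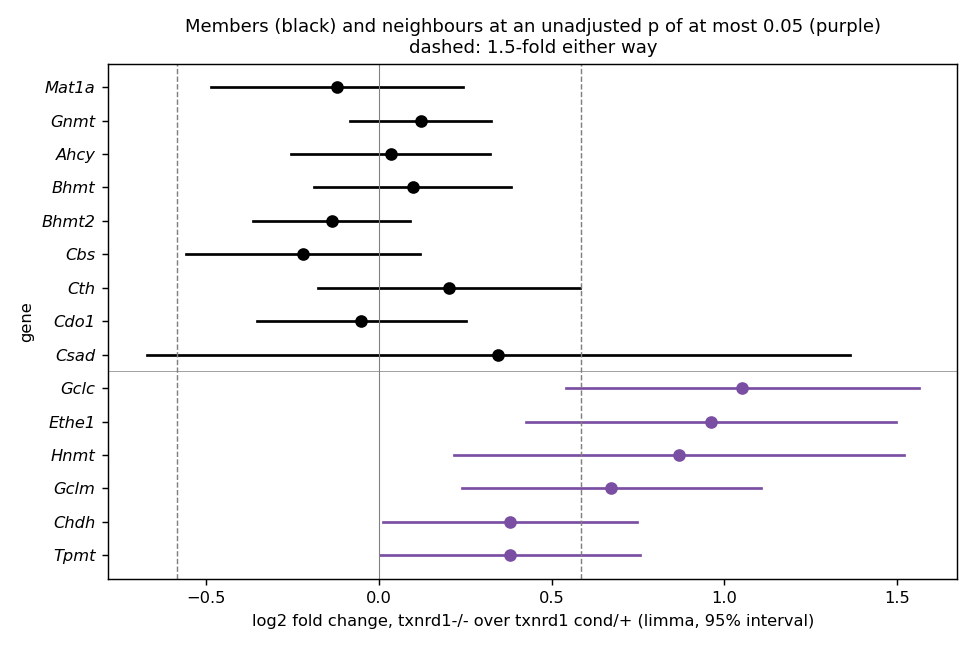
Log2 fold change of txnrd1-/- over txnrd1 cond/+ livers (horizontal axis; points are limma estimates and lines 95% intervals) for the 9 members in black and, in purple, 6 neighbouring genes with an unadjusted p of 0.05 or less. Dashed lines mark 1.5-fold. All member intervals hold 0, from -0.22 for Cbs to 0.35 for Csad, while Gclc stands at 1.05 and Ethe1 at 0.96.

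Csad, which encodes the decarboxylase that turns cysteine sulfinate into hypotaurine on the way to taurine, was the one member that differed widely between livers, and it did so within both genotypes. Its ratios were 1.11, 1.05, 0.850 and 3.19 in txnrd1-/- animals 69, 72, 73 and 81, against 0.918, 0.945, 0.640 and 2.19 in txnrd1 cond/+ animals 70, 71, 80 and 82. Thus 1 liver of each genotype was far above the other 6, which lay between 0.640 and 1.11. The highest liver was 4.99-fold above the lowest, against 1.22- to 1.68-fold for the other members. The SD within genotypes was 0.805 on the log2 scale, at percentile 99.2 of all genes, whose median was 0.200. The log2 fold change between the genotypes was 0.35 (95% interval -0.67 to 1.36, exact permutation p = 0.514), so the interval reached 2.57-fold higher. Without animal 81 it was -0.07, without animal 82 it was 0.70, and without both, an alternative chosen after the data were seen, it was 0.28.

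The mRNAs named next were picked because they resembled Csad over the livers, or after their values were seen. The 5 genes whose log2 ratios over the 8 livers, each centred on its mean, came closest to Csad were Hspb1, Mad2l2, Lad1, Retsat and Cyp2d9, with root mean square differences of 0.218, 0.240, 0.279, 0.298 and 0.309. This comparison was made because the spread of Csad had been seen, and it uses the same 8 livers. Hspb1, a small heat shock protein, stood at 4.22 in txnrd1-/- animal 81 and at 1.01 to 1.09 in the other txnrd1-/- livers, against 2.33 in txnrd1 cond/+ animal 82 and 0.815 to 0.893 in the other txnrd1 cond/+ livers. Cyp7a1, the rate-limiting enzyme of bile acid synthesis, whose products hepatocytes conjugate to taurine, was also looked up after its values were seen. It was low in the same animals, at 0.140 in animal 81 against 0.905 to 1.01 in the other txnrd1-/- livers, and at 0.186 in animal 82 against 1.06 to 1.71 in the other txnrd1 cond/+ livers. Neither Hspb1 nor Cyp7a1 was called between the genotypes (log2 fold changes 0.43 and -0.42). Baat, the enzyme that makes the taurine conjugates, had a log2 fold change of 0.27 (95% interval from limma reaching below 0).

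**Figure D3:**
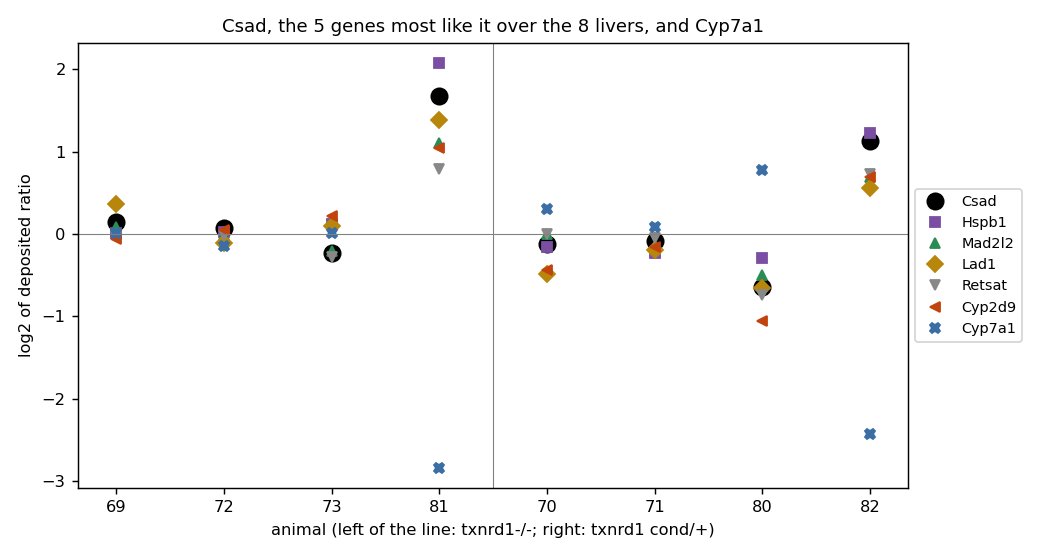
Log2 of the deposited ratio (vertical axis) of Csad, the 5 genes most like it and Cyp7a1 in each of the 8 livers (horizontal axis), txnrd1-/- animals left of the line and txnrd1 cond/+ animals right of it. Csad and the genes like it are high and Cyp7a1 is low in animal 81 and in animal 82. The 5 genes were picked for closeness to Csad, and Cyp7a1 after its values were seen.

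For Cbs, the member of lowest p, the same measure named B4gat1, 4930593A02Rik, Olfr67, A430088P11Rik and Trim72, at root mean square differences of 0.0551 to 0.0837. Their log2 fold changes were -0.11 to -0.18, and none is a gene of this route. They were picked for closeness to Cbs over these same livers, so fold changes near that of Cbs follow from the choice.

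Several members were high or low in the same animals, in ways that cut across the genotypes. All 9 genes were above a ratio of 1 in animal 72 and 1 of 9 was in animal 73, both of them txnrd1-/-. Animal 72 held the highest ratio of 4 genes (Gnmt, Ahcy, Bhmt and Cth). The SD of the log2 ratios over all probe-sets was 0.3502 on the array of animal 72 and 0.2085 on that of animal 73. Over the 8 arrays it ran from 0.1943 (animal 69) to 0.3839 (animal 82). The share of all genes above 1 in each animal was not computed, so these counts are not shown to be particular to the members. The mean log2 ratio of the members was 0.01, 0.21, -0.12 and 0.14 in txnrd1-/- animals 69, 72, 73 and 81, against -0.04, -0.02, 0.10 and 0.09 in txnrd1 cond/+ animals 70, 71, 80 and 82. Csad alone set the sign in animals 81 and 82. Over the other 8 members the mean was -0.00203, 0.228, -0.104 and -0.0501 in txnrd1-/- animals 69, 72, 73 and 81, against -0.0338, -0.00961, 0.189 and -0.0353 in txnrd1 cond/+ animals 70, 71, 80 and 82. Both ways the txnrd1-/- livers held the lowest and the highest mean. Animal 71, with its pancreatic mRNAs, held no member's highest ratio and the lowest ratio of Gnmt alone, and without it member log2 fold changes lay between -0.27 and 0.29.

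Promoter sequence was available for 7 of the 10 genes, as 8 windows of 300 bases (250 before and 50 after a RefSeq start, GRCm38.p6). The core of the antioxidant response element through which Nrf2 acts, TGACNNNGC on either strand, occurred in 0 of the 8 windows and in 12.4% of all 32851 windows. The GC box GGGCGG, on either strand, occurred in 5 of the 8 (35.7% of all), and the TATA box TATAAA in 1 of 8, that of Mat2a (13.6% of all). A match to one of these motifs may overlap a match to another. A match is a description of letters and not of binding. The windows of Csad are shown because it varied most and those of Cbs and Gclm to compare a member with a gene that holds the core. Of 8 windows of 5 neighbouring genes that were higher by the unadjusted p (Gclm, Ethe1, Hnmt, Tpmt and Chdh), 1 held the core, that of Gclm. Gclc, also higher, has no window here. With a share of 12.4% over all windows, counts of 0 and 1 in 8 say little. Gclm encodes the modifier subunit of the enzyme that joins cysteine to glutamate, and its match begins 134 bases before the start, read on the other strand. Capitals mark the GC boxes in Cbs and the antioxidant response element core in Gclm, and Csad has no capitals because the core was not found in its windows. GC boxes are not marked in the other windows shown, which hold 1 in Csad window 2 and 4 in Gclm.
Csad window 1 (chr15:102205003-102205302, minus strand): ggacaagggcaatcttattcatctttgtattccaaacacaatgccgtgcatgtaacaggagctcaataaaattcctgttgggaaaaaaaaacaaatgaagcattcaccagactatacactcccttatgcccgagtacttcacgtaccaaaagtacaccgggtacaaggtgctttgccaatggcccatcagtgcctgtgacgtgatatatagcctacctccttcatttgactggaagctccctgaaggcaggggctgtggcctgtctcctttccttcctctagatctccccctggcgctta
Csad window 2 (chr15:102188994-102189293, minus strand): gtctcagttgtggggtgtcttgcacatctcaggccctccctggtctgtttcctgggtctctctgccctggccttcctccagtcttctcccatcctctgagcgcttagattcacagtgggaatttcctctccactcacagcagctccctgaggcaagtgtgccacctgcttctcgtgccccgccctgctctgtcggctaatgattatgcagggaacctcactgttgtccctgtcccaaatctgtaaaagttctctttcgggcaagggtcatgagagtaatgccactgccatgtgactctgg
Cbs (chr17:31637156-31637455, minus strand): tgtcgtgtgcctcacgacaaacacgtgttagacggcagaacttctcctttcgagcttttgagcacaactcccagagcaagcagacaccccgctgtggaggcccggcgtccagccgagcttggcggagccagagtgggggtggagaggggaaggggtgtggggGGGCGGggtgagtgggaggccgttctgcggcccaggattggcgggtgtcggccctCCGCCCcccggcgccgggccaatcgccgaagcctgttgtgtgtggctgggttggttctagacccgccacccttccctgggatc
Gclm (chr3:122245307-122245606, plus strand): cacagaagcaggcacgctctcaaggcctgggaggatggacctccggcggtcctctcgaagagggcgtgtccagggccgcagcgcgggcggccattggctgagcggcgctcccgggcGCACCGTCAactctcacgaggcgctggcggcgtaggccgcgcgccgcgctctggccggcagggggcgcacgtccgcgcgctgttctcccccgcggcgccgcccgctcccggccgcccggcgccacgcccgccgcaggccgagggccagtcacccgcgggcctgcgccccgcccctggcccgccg

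Neighbouring steps of sulfur amino acid metabolism were read from 6 lists with 42 of 46 genes measured. None was called in limma after adjustment over all genes, of which 0.0824% were. With an unadjusted p of 0.05 or less, which 2.32% of all genes had, 6 of 42 were higher in txnrd1-/- livers (14.3%, against 1.71% of all genes) and 0 were lower (0.605% of all genes), and 4 of the 6 also differed by 1.5-fold (0.654% of all genes). The groups did not overlap for 4 of the 42, Gclc, Gclm, Ethe1 and Sqor (9.52%, against 1.71% of all genes). The lists were chosen with earlier results of these data known, so these shares describe them and are no evidence of enrichment. The median log2 fold change over the 42 genes was 0.04, and 38 of them differed by less than 1.5-fold.

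Of 6 measured genes of the methionine cycle and remethylation, 0 reached that level in limma, and log2 fold changes ran from -0.10 for Mtr, the vitamin B12-dependent methionine synthase, to 0.32 for Mat2b, the regulatory subunit that partners with the product of Mat2a (list median 0.06). The 95% interval of Mat2b ran from -0.19 to 0.84. Among 6 genes of polyamine synthesis and methionine salvage the number was also 0 (list median 0.03, from -0.08 to 0.20). Of 6 genes handling betaine, choline and sarcosine, 1 was higher at that level. It was Chdh, choline dehydrogenase, which makes the betaine that Bhmt uses. Its ratios were 1.29, 1.11, 0.920 and 1.26 in txnrd1-/- animals 69, 72, 73 and 81, against 0.991, 1.00, 0.890 and 0.656 in txnrd1 cond/+ animals 70, 71, 80 and 82 (log2 fold change 0.38, standard error 0.17). The groups overlapped by animal 73. The unadjusted p was 0.05 or less under 7 of 20 alternatives, and without animal 82 the log2 fold change was 0.24.

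Of 6 methyltransferases that draw on S-adenosylmethionine, 2 were higher by the unadjusted p. Hnmt, which methylates histamine, had ratios of 1.495, 0.895, 1.61 and 2.74 in txnrd1-/- animals 69, 72, 73 and 81, against 0.996, 0.998, 0.720 and 0.742 in txnrd1 cond/+ animals 70, 71, 80 and 82 (log2 fold change 0.87, standard error 0.29). In 3 of 4 txnrd1-/- livers it was above every txnrd1 cond/+ liver, and animal 72 was not. Its unadjusted p was 0.05 or less under 17 of 20 alternatives, and with animals 69 to 73 alone its log2 fold change was 0.37. Tpmt, which methylates thiopurines, was 1.30-fold higher (standard error 0.17 on the log2 scale), with overlap of the groups, and its unadjusted p was 0.05 or less under 6 of 21 alternatives. Pemt, which makes phosphatidylcholine and is a large user of methyl groups in liver, had a log2 fold change of -0.29 and did not reach that level.

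Of 12 genes of cysteine, sulfide and taurine handling, 1 was higher by the unadjusted p and the list median was 0.00. This was Ethe1, the mitochondrial persulfide dioxygenase of sulfide oxidation. Its ratios were 1.10, 1.29, 1.26 and 1.88 in txnrd1-/- animals 69, 72, 73 and 81, against 0.881, 0.847, 0.436 and 0.718 in txnrd1 cond/+ animals 70, 71, 80 and 82. Every txnrd1-/- liver was above every txnrd1 cond/+ liver, and the log2 fold change was 0.96 (standard error 0.24, limma adjusted p = 0.792, exact permutation p = 0.0286, the smallest the design allows). With animals 69 to 73 alone the log2 fold change of Ethe1 was 0.49. Its unadjusted p was 0.05 or less under 21 of 21 alternatives. For Sqor, the quinone reductase that starts sulfide oxidation, the groups did not overlap either. Its log2 fold change was 0.11 only, with a 95% interval that held 0. Suox, sulfite oxidase, had a log2 fold change of 0.04 and Tst, the thiosulfate sulfurtransferase, one of -0.27.

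Among 6 genes of glutathione synthesis and cystine uptake, the subunits of glutamate-cysteine ligase stood apart from the rest. Gclc, the catalytic subunit, had ratios of 1.26, 1.36, 1.14 and 2.59 in txnrd1-/- animals 69, 72, 73 and 81, against 0.687, 0.741, 0.692 and 0.774 in txnrd1 cond/+ animals 70, 71, 80 and 82. The groups did not overlap, and animal 81 lay far above the other txnrd1-/- livers. The log2 fold change was 1.05 (standard error 0.23, limma adjusted p = 0.477, exact permutation p = 0.0286). The study had picked Gclc on these samples and its direction adds no independent evidence. Gclm had ratios of 1.08, 1.06, 1.19 and 1.82 in txnrd1-/- animals 69, 72, 73 and 81, against 0.854, 0.943, 0.631 and 0.750 in txnrd1 cond/+ animals 70, 71, 80 and 82, again without overlap (log2 fold change 0.67, standard error 0.19, limma adjusted p = 1.0, exact permutation p = 0.0286). With animals 69 to 73 alone the log2 fold change of Gclm was 0.30. Its unadjusted p was 0.05 or less under 20 of 21 alternatives. Gss, glutathione synthetase, and the cystine carrier Slc7a11 had log2 fold changes of 0.39 and 0.09. Neither reached an unadjusted p of 0.05, nor did Slc3a2, the partner of that carrier, or Coasy, coenzyme A synthase (list median 0.24).

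**Figure D4:**
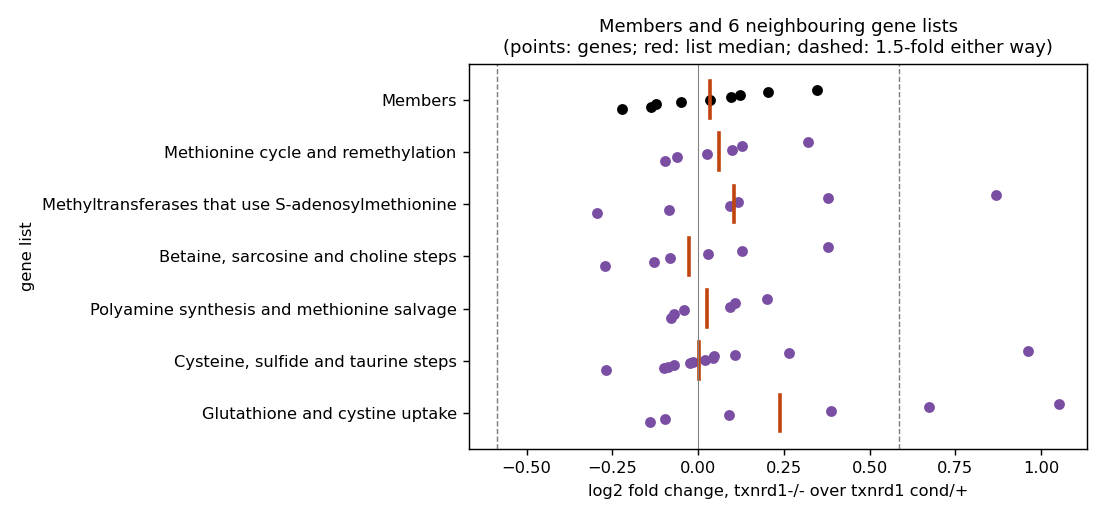
Log2 fold change of txnrd1-/- over txnrd1 cond/+ livers (horizontal axis) for the members and 6 neighbouring lists (vertical axis), with a point per gene and the list median in red. The members lie within 1.5-fold, and the genes past it are Hnmt, Ethe1, Gclm and Gclc.

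Whole liver RNA was measured, so fewer hepatocytes and less of an mRNA per hepatocyte cannot be told apart. Hepatocyte markers moved little, with a median log2 fold change of -0.07.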

How the data were processed

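Liver RNA of 8 mice was hybridized to Affymetrix mouse 430 2.0 microarrays, 1 per animal. In the table that the authors deposited, each value is a ratio on a linear scale, and the median of each array and of most probe-sets is close to 1. The submitters' processing notes name RMA and the methods name GeneSpring 7.3; no version of RMA is stated. Ratios hold no signal level, which leaves the study's filter on weak signals unapplied and the levels of different mRNAs without a comparison. Depth does not apply to arrays; their number limits the precision. 5 of the values are empty and were left empty.

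Names came from the annotation of the platform, with symbols checked against RefSeq (GRCm38.p6): 34945 carry 1 symbol, 932 several and 9160 none. After 64 controls were left out, log2 ratios of 45037 probe-sets, and of 18193 genes (averaged over the probe-sets that carry that symbol alone), were fitted by genotype in limma 3.58.1 under R 4.3.3 (lmFit, eBayes, both sides), with Benjamini-Hochberg adjustment over all of them. Genes were called at 1.5-fold with an adjusted p of 0.05 or less. The study's own thresholds, for which no test or adjustment is named, were taken with the unadjusted p. Single values were also compared by a 2-sided exact permutation test over 70 splits (scipy 1.17.1), whose smallest p is 0.0286. The code was tested on simulated data. Plots used matplotlib 3.10.9 and Python 3.11.15. The members, the neighbouring gene lists and the markers were chosen with earlier results of these data known. Named in the text are the members, list members with an unadjusted p of 0.05 or less, and the 5 genes most like the member of lowest p. Other names were chosen after their values were seen. Alternatives were other scalings, fits, tests, offsets, probe-set choices, a covariate for the animal number range, and leaving out each animal.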

Additional observations from a re-analysis of the deposited data

Results flagged for a closer look

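In 76 groups of 4 livers tested with Dixon's criterion, counting each mRNA on the ratio and on the log2 scale, 2 held a liver far from the rest, where chance flags about 1 in 20. Both were txnrd1-/- animal 81 on the ratio scale. For Csad it stood at 3.19 against 0.850 to 1.11 in the other txnrd1-/- livers, a gap of 0.889 of the range, and for Gclc at 2.59 against 1.14 to 1.36, a gap of 0.847 of the range. On the log2 scale, on which the tests were run, neither gap passed the criterion.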

How the results depend on the processing

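No member gene or probe-set was called under any of 21 alternatives for either. All were fits in limma except Welch's test of each gene or probe-set alone. At an unadjusted p of at most 0.05 the count of member probe-sets was 1 in place of 0 with robust regression and 1 with Welch's test of each probe-set alone, both for the Bhmt2 probe-set 1418914_s_at. Of 392 values of single genes or probe-sets, 380 kept direction and call, 11 turned direction and 1 gained a call: Gclc with robust regression, which made the number of neighbours called 1 in place of 0. With animals 69 to 73 alone, an alternative chosen after the data were seen, 2 neighbours in place of 6 reached an unadjusted p of at most 0.05, and 1 in place of 4 did so with a 1.5-fold difference; without animals 81 and 82, likewise chosen, that count was 2. Leaving out 1 animal at a time gave 4 to 7 and 3 to 5.

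The direction turned for Ahcy, Cdo1, Mat1a, Bhmt and Csad. Ahcy was -0.0162 with array weights, and without 1 animal it ran from -0.0601 (without 72) to 0.11, also turning without 82. Cdo1 was 0.0206 with the animal number range (69 to 73 or 80 to 82) as a covariate. With animals 69 to 73 alone Cdo1 was 0.0571, Mat1a 0.0208 and Bhmt -0.0441. Without 1 animal Cdo1 ran from -0.13 to 0.0134, turning without 80, 82 or 69, and Csad from -0.0737 (without 81) to 0.70. Each cause was not tested. Cbs and Csad have no value with unique probe-sets only. No paired analysis was possible because the labels name no pairs of animals across the genotypes. With 4 livers a genotype, differences within the intervals given were not detectable.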
